A study of Rattus norvegicus with 8 samples.

Results

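Lungs of rats that had breathed cigarette smoke and then received stem cell vesicles were set against lungs of rats that had breathed normal air. The 2 arrays titled CS-HUCMSC-EV 1 and 2 (called EV lung) and the 2 titled NAÏVE 1 and 2 (naive lung) were chosen by those titles, 4 of the 8 arrays of the series. All 8 arrays carried Cy3-labelled material from male rat lung. The EV rats had 12 weeks of smoke and, at week 13, extracellular vesicles (EVs) given into the trachea, prepared from about 2500000 human umbilical cord mesenchymal stem cells (MSCs). The other arrays were 2 of smoke followed by about 2500000 of the MSCs themselves (MSC lung) and 2 of smoke alone (CS lung). Naive rats received neither smoke nor a treatment. The labels name no age or strain, no group with smoke and a vehicle in place of vesicles, and no group with vesicles and normal air. They do not say that the 2 samples of a group are separate animals, so a p-value here reflects only how far these samples spread, and that spread may be technical.

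Cigarette smoke brings polycyclic hydrocarbons to the lung, where the aryl hydrocarbon receptor binds them and turns on enzymes that oxidise them, with Cyp1a1 as the classic target. Long exposure is also known to draw neutrophils and macrophages into airways and to loosen the elastic fibres of the alveoli. Extracellular vesicles are small membrane packets released by cells, which carry RNA and protein and are studied as a cell-free form of stem cell treatment. The comparison asks how close the smoke-exposed, vesicle-treated lung stood to a lung that never met smoke.

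A level here is the log2 processed signal of a probe minus the 75th percentile of its array, so a level of 0 is a bright probe and each difference is set against the bulk of probes on those arrays. Of 45598 probes, 26281 were well above background on both EV arrays or both naive arrays, and they made 22441 features, 11658 of them with a gene symbol. That percentile stood at a signal of 778 and 494 on the EV arrays, against 581 and 373 on the naive arrays. On the CS arrays it stood at 3312 and 2725, or 6.46-fold the naive value. Comparisons of EV with CS lung therefore lean on the scaling far more than those with naive lung. The share of probes above background was 64.0% and 59.9% on the EV arrays, against 65.3% and 48.1% on the naive arrays, with naive replicate 2 the lowest. Each group filled 1 column of the slide, so slide column and group cannot be told apart. Samples with the same replicate number lay in the same row. In tissue as a whole, fewer cells of a type and less RNA per cell cannot be told apart either.

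No feature passed the test between EV and naive lung. Across all 22441 features limma called 0 (0%) at an adjusted p of 0.05, with 0.946 as the lowest adjusted p. The groups did not overlap for 8610 features (38.4%), with EV on top for 3523 (15.7%) and below for 5087 (22.7%). At an unadjusted p under 0.05 there were 962 (4.29%), of which 495 (2.21%) were higher and 467 (2.08%) lower in EV lung. The median difference was -0.05 and the middle of the distribution ran from -0.30 to 0.23 (quartiles). A difference of more than 1 log2, a doubling or halving, was measured for 1050 features (4.68%), and of more than 2 for 137. The median standard error was 0.35, so the 95% interval of a typical feature reached 0.81 to either side.

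**Figure D1:**
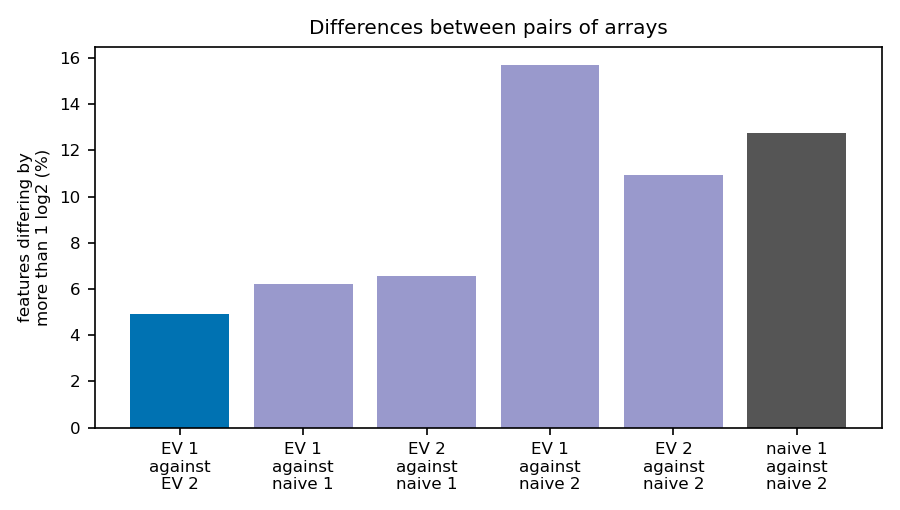
Share of the 22441 features that differed by more than 1 log2 between 2 arrays, for each pair among the EV and naive arrays. The EV pair differed least (4.91%), naive replicate 1 stood nearly as close to either EV array (6.24% and 6.58%), and the pairs that hold naive replicate 2 differed most (10.95% to 15.7%).

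The arrays of both groups lay close together, and 1 naive array stood apart. EV replicates 1 and 2 differed by more than 1 log2 at 4.91% of features. Naive replicate 1 differed that much from EV replicate 1 at 6.24% and from EV replicate 2 at 6.58%, fewer than from its own group's replicate 2, at 12.7%. Naive replicate 2 differed from the EV arrays at 15.7% and 10.95%.

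A feature was called near naive where the whole 95% interval of its difference lay between -1 and 1. This held for 8229 features (36.7%), and for 4710 of the features with a symbol (40.4%). For the rest the arrays do not place the EV level within a factor of 2 of the naive level, which is not a measured difference. With scaling to the E1A spike-in controls, RNAs added during labelling, every EV minus naive difference moves up by 0.48, and no feature then met the near-naive rule. That scaling also changes the spread within groups. From replicate 1 to 2 the 75th percentile fell from 778 to 494 in EV lung and from 581 to 373 in naive lung. The mean log2 spike-in signal barely moved, at 11.36 and 11.4 in EV lung and 11.39 and 11.48 in naive lung. The count of 0 therefore mixes the shift with the width of the intervals, and does not measure nearness per amount of spiked RNA. The statements on nearness hold relative to the rest of the array only.

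The defining markers of lung were bright in both groups. Sftpc, the surfactant protein C gene of alveolar type 2 cells, stood at 9.10 and 9.48 in EV lung, against 9.46 and 9.84 in naive lung. Ager, an alveolar type 1 marker, stood at 7.35 and 7.23 in EV lung, against 7.39 and 7.13 in naive lung. Scgb1a1 of airway club cells was at 6.43 and 6.62 in EV lung, against 6.41 and 7.54 in naive lung. These levels are among the brightest of the arrays in both groups. They overlap between the groups for each of the 3 genes. Ager was not typical of its list: of 12 alveolar type 1 genes 10 lay below naive and 2 above, with a median of -0.34, which was -0.20 without EV replicate 1 and turned to 0.13 with the spike-in scaling. For 7 of the 12 both EV arrays lay below both naive arrays, against 22.7% of all features, and 0 were near naive. Foxj1 of ciliated cells (2.66 and 2.45 in EV lung, against 1.60 and 2.81 in naive lung) and Pecam1 of endothelium (5.04 and 4.98 in EV lung, against 5.004 and 5.55 in naive lung) overlapped too. The differences of the 5 markers ran from -0.45 to 0.35.

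The protein-making, energy and protein-degrading machinery made up the lists with the highest shares of measured members near naive. Of 40 ribosomal protein genes measured, 31 were near naive (77.5%, against 36.7% of all features), with differences from -0.60 to 0.28 and a median of -0.13. Of 30 respiratory chain genes 24 were near naive (80.0%), with a median of -0.10, and of 24 proteasome genes 15 were (62.5%), with a median of -0.12. Genes of vesicle trafficking followed, with 11 of 21 near naive (52.4%) and a median of 0.00. Rplp1, a protein of the ribosomal stalk, was at 7.56 and 7.75 in EV lung, against 7.93 and 7.92 in naive lung. Cox4i1, a subunit of cytochrome c oxidase, was at 5.10 and 5.09 in EV lung, against 5.21 and 5.47 in naive lung. The EV levels of both genes lay just below the naive ones, by 0.27 and 0.25. Both EV arrays lay below both naive arrays for 15 of 40 ribosomal, 9 of 30 respiratory chain and 10 of 24 proteasome genes. For vesicle trafficking this held for 6 of 21, and over all features for 22.7%. Both EV arrays lay above for 0, 2, 1 and 2 genes of these lists, against 15.7% of all features. Scaled by the spike-in controls, the medians of these 4 lists lay at 0.34, 0.37, 0.35 and 0.48, as the shift of 0.48 requires. Members of these lists also had small standard errors (a median of 0.29 for ribosomal proteins and the respiratory chain, against 0.35 over all features), which the near-naive rule favours.

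Several genes that separated EV from CS lung stood near naive levels. EV and CS lung were compared in the same fit, where 9928 features (44.2%) passed, 7761 (34.6%) higher and 2167 (9.66%) lower in EV lung. This split rests on the scaling: with the spike-in controls 16443 passed and 1.19% of them were higher. The values of the 3 groups are given side by side below, and the genes were picked with their response to smoke already known.

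RT1-CE5, of the rat class I histocompatibility complex, stood at 3.16 and 3.31 in EV lung, at -6.09 and -5.94 in CS lung, and at 3.44 and 2.75 in naive lung. The EV and naive arrays overlapped, while both CS arrays lay far below. Its EV minus naive difference was 0.14 (SE 0.31, 95% interval -0.57 to 0.85), and EV exceeded CS by 9.25 (SE 0.31, limma adjusted p = 3.24e-05). Cyp4a2, a fatty acid hydroxylase, stood at -2.54 and -1.90 in EV lung, at -8.47 and -7.50 in CS lung and at -2.38 and -2.15 in naive lung. Cyct, the testis form of cytochrome c, stood at -1.82 and -0.49 in EV lung, at -9.02 and -6.93 in CS lung and at -1.91 and -1.67 in naive lung. EV lung was higher than CS lung by 5.77 for Cyp4a2 (adjusted p = 0.0014) and 6.82 for Cyct (adjusted p = 0.00165, limma for both). All 3 remained above CS with the spike-in scaling, at 6.78, 3.30 and 4.35. Some ERCC probes, made for spike-in RNAs and not for rat genes, also lay far lower in CS than in EV lung, as given in the closing section. The intervals of Cyp4a2 (-1.04 to 1.13) and Cyct (-0.90 to 2.17) against naive were too wide to be called near.

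Other genes were lower in EV than in CS lung, and some of them were again near naive. Rela, the gene of the NF-kB subunit p65, was at -1.81 and -2.01 in EV lung, at 0.45 and 0.09 in CS lung and at -1.997 and -2.38 in naive lung. Lcn2, a neutrophil and epithelial protein that withholds iron from bacteria, was at 1.44 and 1.12 in EV lung, at 2.86 and 2.57 in CS lung and at 1.21 and 0.95 in naive lung. Krt19, a keratin of simple epithelia, was at 0.70 and 0.12 in EV lung, at 2.66 and 1.95 in CS lung and at 0.10 and 0.88 in naive lung. The EV and naive arrays overlapped for each of these genes and both CS arrays lay above them. Against CS they fell by 2.18, 1.43 and 1.89 (limma adjusted p = 0.0028, 0.0103 and 0.00792), and all 3 were near naive, with differences of 0.28, 0.20 and -0.08. Krt19 was not typical of the mesothelium list, to which it belongs. There 5 of 6 measured genes had both EV arrays above both naive arrays, against 15.7% of all features. The median of that list was 0.70, or 0.28 with normexp background correction, and 1 of the 6 passed the filter in EV lung alone. The elastin-crosslinking enzyme gene Loxl1 (-3.11 and -3.84 in EV lung, 0.02 and -0.81 in CS lung, -3.34 and -4.29 in naive lung) and the perforin gene Prf1 of cytotoxic cells (-1.35 and -1.71 in EV lung, 1.16 and -0.18 in CS lung, -1.57 and -2.35 in naive lung) also lay below CS. Their differences from naive, 0.34 and 0.43, had intervals reaching past 1. Gzmb, which encodes granzyme B, stood at -3.17 and -2.84 in EV lung, -0.56 and -2.35 in CS lung and -3.45 and -3.34 in naive lung. Eng, a TGF-beta co-receptor of endothelium, was the lowest of this group relative to naive, at -4.21 and -4.47 in EV lung, 0.79 and -0.31 in CS lung and -4.19 and -3.20 in naive lung. Its difference from naive ran from -1.14 to -0.15 without single arrays.

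Some genes near naive were higher in EV than CS lung on the percentile scale only. The antiviral gene Mx2 (4.80 and 5.09 in EV lung, 3.099 and 3.44 in CS lung, 5.35 and 4.78 in naive lung), Fmo2, a flavin monooxygenase that is abundant in lung (4.16 and 4.79, 2.30 and 3.09, and 4.32 and 4.61, in the same order of groups), and Ddah2, which breaks down an inhibitor of nitric oxide synthase (3.49 and 3.30, 1.66 and 1.94, and 3.71 and 2.97), exceeded CS by 1.67, 1.79 and 1.59 (limma adjusted p = 0.00859, 0.00796 and 0.00885). These turned to -0.80, -0.68 and -0.87 with the spike-in scaling. Sod1, the cytosolic superoxide dismutase (4.71 and 4.75 in EV lung, against 4.71 and 4.76 in naive lung), Timp2, an inhibitor of matrix proteases (4.34 and 4.26, against 4.43 and 4.22), Prkcz, an atypical protein kinase C (-0.48 and -0.64, against -0.47 and -0.61), and Myh11, smooth muscle myosin (2.35 and 2.16, against 2.39 and 2.10), were near naive as well. Their differences ran from -0.02 to 0.01 and the groups overlapped for each.

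**Figure D2:**
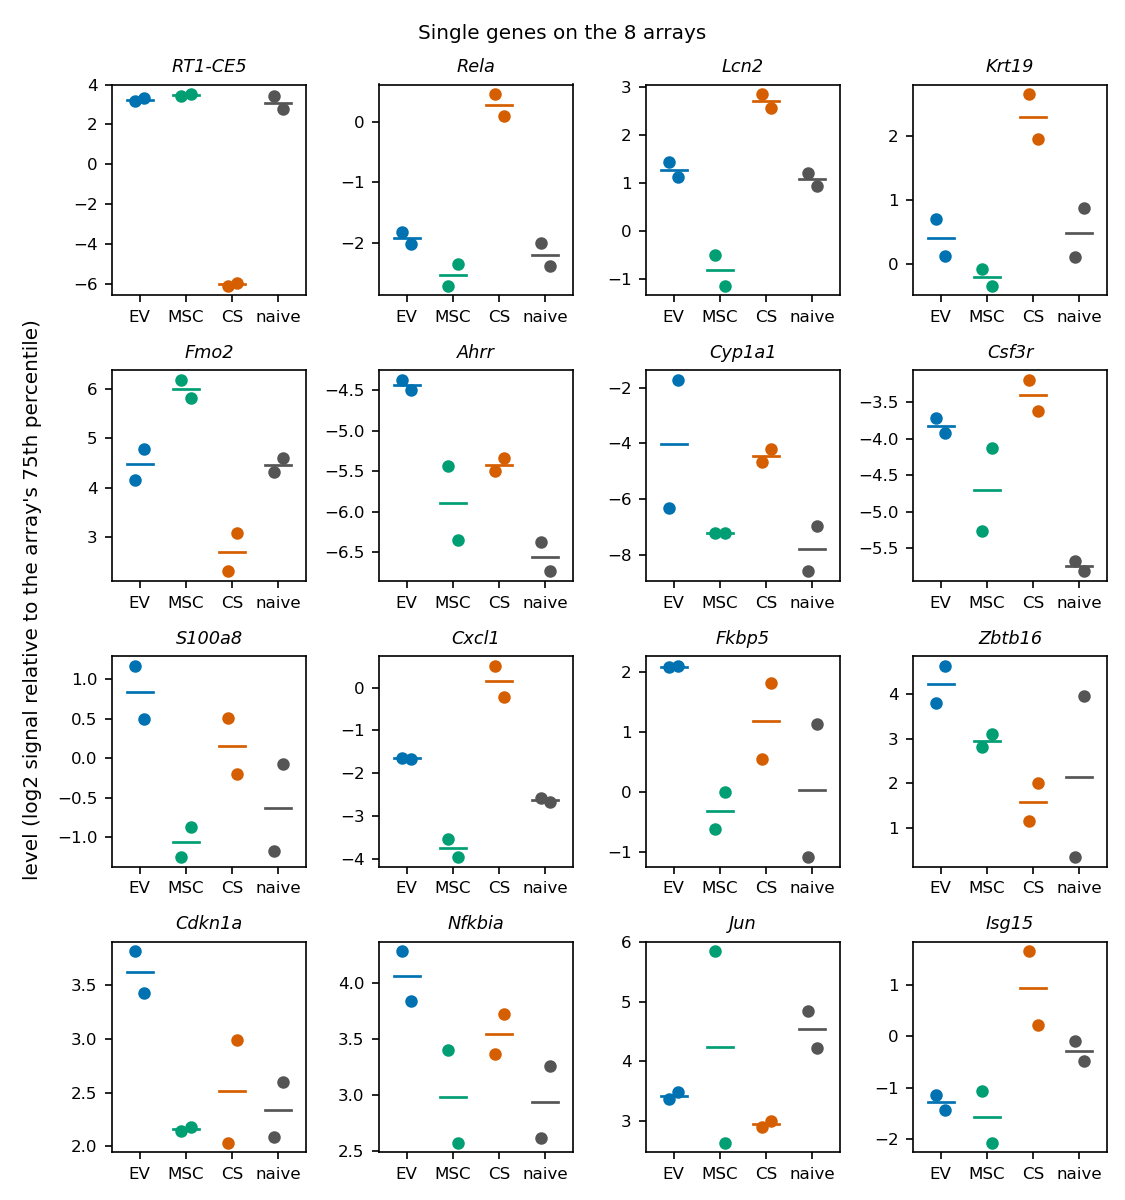
Levels of 16 genes on each array, with 2 dots and a mean bar per group in the order EV, MSC, CS and naive. In the first row and for Fmo2 the EV dots lie beside the naive ones, and for Ahrr, Csf3r, Cxcl1, Cdkn1a and Nfkbia both EV dots lie above both naive dots.

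The genes that stood away from naive are described without a call, since none passed. The aryl hydrocarbon receptor set gave the smallest p of any named gene that was higher in EV lung. Ahrr, which encodes a repressor that the receptor itself induces, was at -4.37 and -4.50 in EV lung, against -6.38 and -6.73 in naive lung, with CS lung at -5.50 and -5.34. It was well above background on both EV arrays and on neither naive array, so it passed the filter through EV lung alone. On the percentile scale this gave a bound of 2.95-fold brighter in EV lung, which does not carry over to other processing. A bound of this kind compares the mean of the brighter group with, on each dim array, the probe's own signal or the dimmest signal that still counted as well above background, whichever was higher. The fitted difference was 2.12 (SE 0.35, unadjusted p = 0.00032, adjusted p = 0.946 by limma), and it stood at 0.11 with normexp background correction, an alternative that pulls dim probes together.

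Cyp1a1, the receptor's classic target and a smoke-induced hydrocarbon hydroxylase, was at -6.34 and -1.72 in EV lung, against -8.60 and -6.99 in naive lung, with CS lung at -4.67 and -4.21. EV replicate 2 lay far above EV replicate 1, which was within 1 log2 of naive replicate 2. Not well above background in naive lung, Cyp1a1 also passed the filter through EV lung alone. Its bound on the percentile scale, 4.88-fold brighter in EV lung, uses the mean of the EV arrays and so rests on EV replicate 2. The fitted difference was 3.76 (SE 1.25), 1.45 without EV replicate 2 and 0.73 with normexp.

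Most other genes of the list did not go with them. Of 16 measured genes 8 lay above and 8 below naive, the median was 0.00 (-0.10 to 0.25 without single arrays), and 8 were near naive. Ahr, the receptor itself, was near naive at -0.72 and -0.72 in EV lung, against -0.29 and -0.94 in naive lung. Cyp1b1, another target of the receptor, was at -3.97 and -4.23 in EV lung, against -4.98 and -3.20 in naive lung, with the naive arrays on either side of the EV ones. Nqo1, a quinone reductase also under NRF2, was at -2.81 and -2.50 in EV lung, against -2.61 and -1.92 in naive lung.

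The promoters of the target that stood away and of the target that did not are shown to compare them at the receptor's core motif, GCGTG on the gene's strand or CACGC on the other. Sequences are windows of 300 bases from RefSeq on GRCr8, 5′ to 3′ on the gene's strand, with motif matches in capitals. Of the 3 targets named above, 2 had an entry, and Cyp1a1 is named only. Ahrr lies at chr1:30821969-30822268 and Cyp1b1 at chr6:21094315-21094614, both on the + strand. The Ahrr window runs from 250 bases before the annotated start of the gene through its first 50 bases, while the Cyp1b1 window begins 388 bases inside the annotated gene.
Ahrr: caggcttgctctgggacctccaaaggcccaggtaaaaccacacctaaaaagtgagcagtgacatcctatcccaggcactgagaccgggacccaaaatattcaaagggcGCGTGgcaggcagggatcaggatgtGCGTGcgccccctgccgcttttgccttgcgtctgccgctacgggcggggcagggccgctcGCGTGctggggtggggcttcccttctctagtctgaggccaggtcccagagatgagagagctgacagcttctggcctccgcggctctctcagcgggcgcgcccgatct
Cyp1b1: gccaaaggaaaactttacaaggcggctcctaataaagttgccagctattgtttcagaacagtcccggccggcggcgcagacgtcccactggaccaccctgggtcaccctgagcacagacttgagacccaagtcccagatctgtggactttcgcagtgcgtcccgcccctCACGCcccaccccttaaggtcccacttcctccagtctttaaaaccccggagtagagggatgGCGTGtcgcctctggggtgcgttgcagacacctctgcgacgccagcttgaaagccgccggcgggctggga
The Ahrr window holds 3 matches on the gene's strand and 0 on the other, and the Cyp1b1 window 1 on each. Of 33469 rat promoters of the same length, 29.7% hold the motif on either strand, so a match is common and both genes have it.

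Neutrophil genes stood above naive levels in part. Of 10 measured genes 6 were well above background in both groups and 4 in EV lung alone, so the filter itself favours members that are high in EV lung. Among the 10, 8 lay above naive and 2 below, against 45.0% of all features above. Both EV arrays were on top for 4, against 15.7% of all features. Their median of 1.04 was 0.49 with no filter on dim probes, 0.52 with a filter on all 4 arrays and 0.45 with normexp. Csf3r, Defa5 and Np4 are among those that passed in EV lung alone. Csf3r, the receptor for the growth factor that drives neutrophil output, was at -3.72 and -3.92 in EV lung, against -5.68 and -5.82 in naive lung (difference 1.93, SE 0.40, unadjusted p = 0.0012). It stood at 0.29 with normexp. S100a8, a subunit of calprotectin, was at 1.17 and 0.49 in EV lung, against -1.18 and -0.08 in naive lung. Its partner S100a9 was at 3.22 and 2.99 in EV lung, against 1.20 and 2.55 in naive lung. Both EV arrays lay above both naive arrays for these 3 genes. The alpha-defensin genes Defa5 and Np4, antimicrobial peptides of rat neutrophils, reached -0.31 and -0.55 on EV replicate 1 alone, with -3.46 and -2.97 on EV replicate 2, against -6.26 and -6.42 on naive replicate 1 and -3.34 and -3.02 on naive replicate 2. For them EV replicate 2 and naive replicate 2 stood together. The summed level of the list was 4.08 and 3.66 on the EV arrays, against 2.61 and 3.29 on the naive arrays, and its median without single arrays ran from 0.59 to 1.51.

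Genes that glucocorticoids are known to induce had the next highest median. Of 14 measured genes 12 lay above naive, against 45.0% of all features, and 7 exceeded 1 log2 in either direction. The median of 0.74 was 0.30 without naive replicate 1 and 1.09 without naive replicate 2, and 0.39 with normexp. Fkbp5, a co-chaperone of the glucocorticoid receptor and its standard target, was at 2.08 and 2.11 in EV lung, against -1.08 and 1.15 in naive lung. Klf9, a transcription factor, was at 1.06 and 0.81 in EV lung, against -1.16 and 0.02 in naive lung. Zbtb16, a further transcription factor, was at 3.81 and 4.64 in EV lung, against 0.34 and 3.96 in naive lung. In each case naive replicate 1 was the low one. The EV arrays agreed and lay above both naive arrays for Fkbp5 and Klf9, while for Zbtb16 naive replicate 2 lay between the EV arrays. Without naive replicate 1 the differences of Fkbp5, Klf9 and Zbtb16 were 0.95, 0.91 and 0.27, against 2.06, 1.501 and 2.08 in the full fit. Tsc22d3, another target, overlapped as well (3.20 and 3.43 in EV lung, against 2.57 and 3.66 in naive lung).

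Single genes of inflammation and stress signalling stood higher as well. Cxcl1, a chemokine that attracts neutrophils, was at -1.64 and -1.66 in EV lung, at 0.52 and -0.21 in CS lung and at -2.58 and -2.69 in naive lung. It lay between the other groups: it fell by 1.81 against CS (limma adjusted p = 0.00502) and exceeded naive by 0.98 (SE 0.33, unadjusted p = 0.017), without passing. Il33, an alarmin of the airway lining, was at 0.58 and 0.29 in EV lung, at 2.35 and 2.15 in CS lung and at 0.25 and -0.41 in naive lung. Nfkbia, the inhibitor of NF-kB that the pathway itself induces, was at 4.28 and 3.83 in EV lung, against 2.62 and 3.26 in naive lung. Cdkn1a, the cell cycle inhibitor p21, was at 3.82 and 3.43 in EV lung, against 2.08 and 2.60 in naive lung. Both EV arrays lay above both naive arrays for these 4 genes, as for 15.7% of all features. Cdkn1a also exceeded CS by 1.11 (limma adjusted p = 0.0457), which turned to -1.36 with the spike-in scaling.

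The cytokine genes that define acute inflammation were mixed. Tnf was at -1.92 and -1.72 in EV lung, against -2.22 and -3.05 in naive lung. Il1b ran the other way, at 0.13 and 0.04 in EV lung, against 0.57 and 0.51 in naive lung. The monocyte chemokine gene Ccl2 overlapped, at -5.53 and -4.86 in EV lung, against -3.99 and -5.61 in naive lung. Over the whole list of chemokines and cytokines 15 of 24 measured genes lay above naive and 9 below, with a median of 0.43 and 1 gene near naive. That median was 0.10 without EV replicate 2, 0.15 without naive replicate 2 and 0.65 without naive replicate 1. Normexp brought it to 0.015, and no filter on dim probes to -0.0075.

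Immediate early and interferon genes tended to lie below naive. Of 20 immediate early genes 19 lay below 0, against 55.03% of all features, with a median of -0.45 that turned to 0.03 with the spike-in scaling. That median was -0.16 without naive replicate 1 and -0.82 without naive replicate 2. Jun was at 3.36 and 3.48 in EV lung, against 4.84 and 4.23 in naive lung. Nr4a1, a nuclear receptor induced within minutes of a stimulus, was at 1.76 and 1.56 in EV lung, against 4.30 and 2.21 in naive lung. For both genes the EV arrays agreed and lay below both naive arrays. Of 21 interferon response genes 18 lay below 0, with a median of -0.34 that turned to 0.13 with the spike-in scaling and was -0.22 without naive replicate 1, and 11 had both EV arrays below both naive arrays, against 22.7% of all features. Isg15, a ubiquitin-like modifier, was at -1.14 and -1.43 in EV lung, at 1.65 and 0.21 in CS lung and at -0.10 and -0.49 in naive lung. Ifi44 was at 0.47 and 0.59 in EV lung, against 1.07 and 2.05 in naive lung. Oas1k, of the oligoadenylate synthetase family, had the highest difference of the list (0.88), at -4.73 and -4.96 in EV lung, against -6.71 and -4.74 in naive lung, where neither array showed it well above background.

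Heat shock and vessel tone genes held further single differences. Of 17 heat shock and folding genes 16 lay above naive, with a median of 0.34, against -0.05 over all features, and of 0.074 without EV replicate 1. Hsph1 (-1.03 and -2.34 in EV lung, against -3.68 and -2.68 in naive lung) and the co-chaperone gene Bag3 (2.29 and 0.72, against 0.65 and -0.17) exceeded 1 log2, at 1.496 and 1.27, with EV replicate 1 the higher. Nos3, endothelial nitric oxide synthase, was at -1.54 and -1.85 in EV lung, against -2.52 and -2.88 in naive lung. The natriuretic peptide clearance receptor gene Npr3 was at -0.72 and -1.21 in EV lung, against -2.95 and -2.35 in naive lung. The endothelin receptor gene Ednra ran the other way, at -1.26 and -0.93 in EV lung, against -0.27 and 0.14 in naive lung. All 3 had no overlap between groups, which held for 38.4% of all features. Of the 14 nitric oxide and cGMP genes 4 had both EV arrays above both naive arrays and 1 had both below, against 15.7% and 22.7% of all features. The median of the list was 0.16, or 0.04 without naive replicate 1 and 0.34 without EV replicate 1.

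Markers of other immune cells lay on both sides of naive. Of 9 mast cell and eosinophil genes 8 lay below 0, with a median of -0.49, which was -0.03 without EV replicate 2 and turned to 0.21 without naive replicate 2. Of 19 macrophage genes 14 lay above naive and 5 below, with a median of 0.26, which was 0.45 without naive replicate 1 and turned to -0.05 with normexp. For 7 of the 19 both EV arrays lay above both naive arrays, against 15.7% of all features, and 3 of the 19 passed the filter in EV lung alone. Cd74, the class II invariant chain, stood higher at 4.43 and 3.71 in EV lung, against 3.61 and 2.54 in naive lung. The class II list had a median of 0.31, with 10 of 13 genes above naive, and a median of -0.015 without naive replicate 2 and 0.68 without naive replicate 1. Cd247, a chain of the T cell receptor complex, stood lower at 0.68 and 0.74 in EV lung, against 1.41 and 1.75 in naive lung, and 8 of 11 T cell genes lay below 0, with a median of -0.26, which ran from -0.48 to -0.32 without single arrays and turned to 0.22 with the spike-in scaling. Of the erythroid genes Slc4a1, the anion exchanger of red cells, was at -1.92 and -2.38 in EV lung, against -4.08 and -4.04 in naive lung, while the alpha-globin gene Hba-a1 was at 8.75 and 8.70 in EV lung, against 8.97 and 9.30 in naive lung. The matrix genes Eln (3.601 and 3.35 in EV lung, against 3.41 and 2.83 in naive lung) and Col1a1 (2.73 and 2.55, against 2.78 and 2.04) overlapped.

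**Figure D3:**
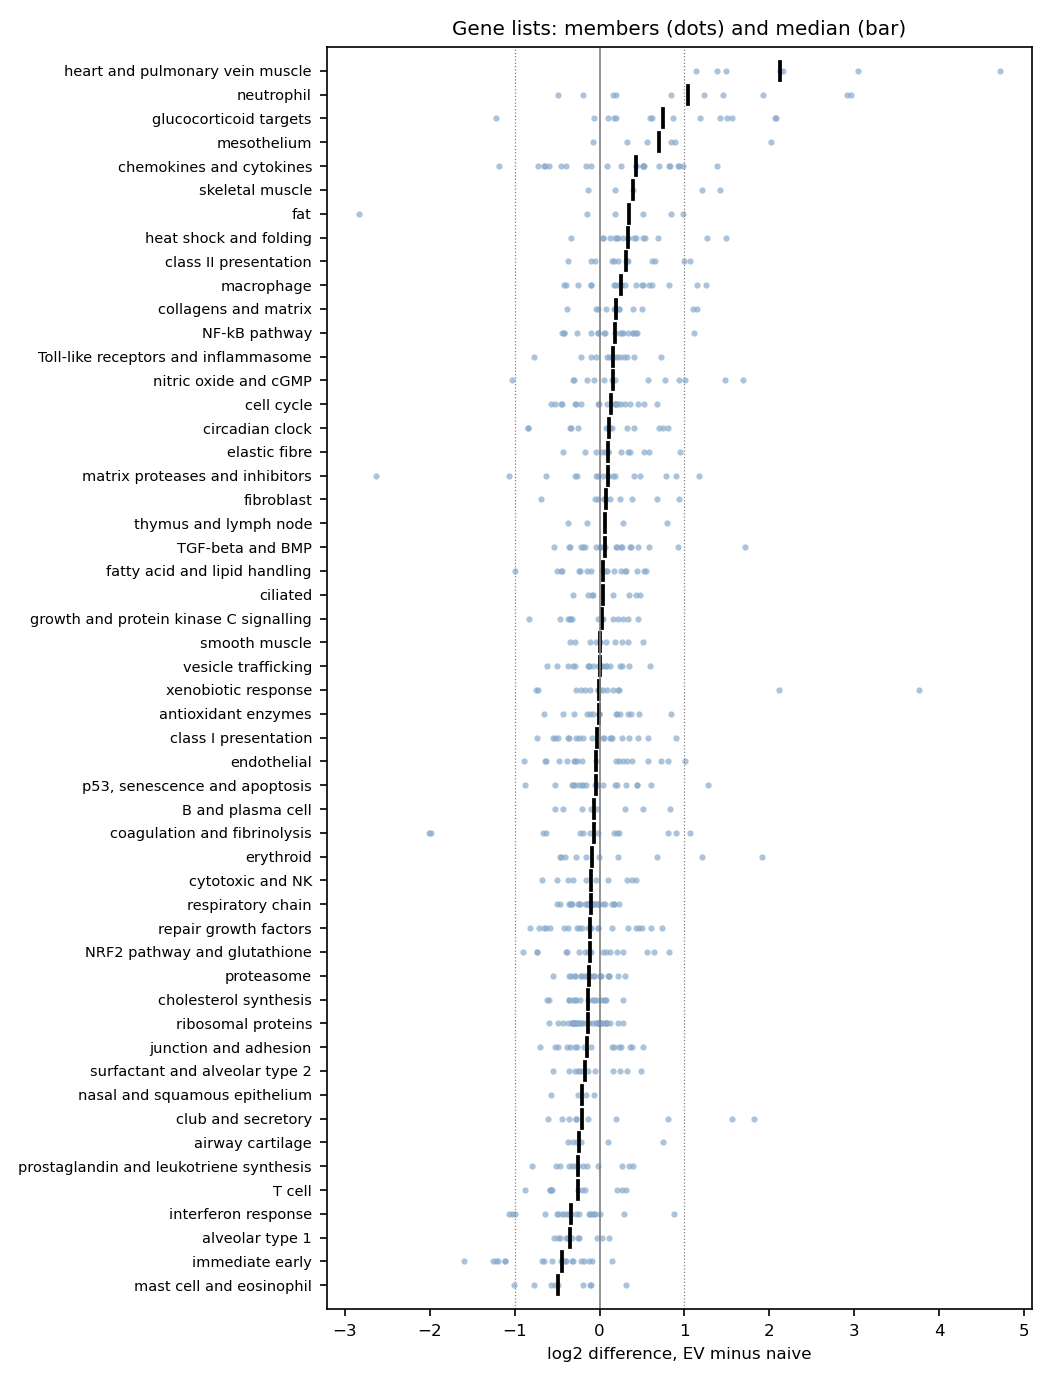
EV minus naive log2 difference of each measured member (dots) and the median (bar) of 52 gene lists, ordered by median, with dotted lines at -1 and 1. The ribosomal, respiratory chain and proteasome lists keep all members within 1 log2, as do many other lists, such as alveolar type 1, cell cycle and cholesterol synthesis. The heart muscle, neutrophil and glucocorticoid lists have the highest medians, at 2.12, 1.04 and 0.74.

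The smallest unadjusted p-values among named genes show which transcripts stood farthest from naive relative to their error. The filter favours such genes. On the higher side all but Tnnt1 and Slc4a1 passed it through EV lung alone. On the lower side Amy1, Slc22a8, Slc6a3, Akr1c2, Nfasc and Ugt2b passed it through naive lung alone. After Ahrr on the higher side came the calcium channel gene Cacna1h, with a bound of 3.25-fold brighter on the percentile scale. Its fitted difference of 2.83 stood at 0.11 with normexp. Next was the slow skeletal troponin gene Tnnt1, at -2.28 and -2.36 in EV lung, against -3.87 and -3.70 in naive lung. Besides Csf3r and Slc4a1 these were followed by Xpnpep3, Ankrd33b, Polr1b, Arhgap11a, Mks1, Csta and Tnfrsf8, with differences from 1.19 to 1.82. Of these 7, Xpnpep3, Ankrd33b, Polr1b, Arhgap11a and Mks1 are dim probes that turned below 0 with normexp. The lower side was led by the amylase gene Amy1, at -8.17 and -7.76 in EV lung, against -5.85 and -4.11 in naive lung. Its bound on the percentile scale was 2.86-fold dimmer in EV lung. Gys2, the liver glycogen synthase, followed at -5.90 and -5.50 in EV lung, against -4.03 and -3.74 in naive lung. The others were Slc22a8, Ttc36, Prpf4b, Slc6a3, Akr1c2, LOC102555003, Nfasc, Kbtbd8, Ugt2b and Slc38a4, with differences from -4.39 to -1.12. With the spike-in scaling limma called 7 features, Cacna1h (3.31) and Akr1c2 (-3.92) among them and the other 5 without a symbol.

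Transcripts typical of liver and of heart muscle were high on single arrays. Of 24 liver transcripts, a list drawn up after the low genes had been seen, 17 were measured, and naive replicate 2 was the highest of the 4 arrays for all 17. Among them Ttr, Akr1c2, Ambp, Ugt2b and Apoh passed the filter through naive lung alone, so the filter favours members that are high there. Ttr, a thyroid hormone carrier made by liver, was at -5.48 and -7.32 in EV lung, against -4.98 and 3.81 in naive lung. Apoa2, an apolipoprotein of high-density lipoprotein, was at -5.90 and -4.84 in EV lung, against -4.67 and 0.22 in naive lung. The plasma protein gene Ambp was at -4.63 and -6.04 in EV lung, against -4.70 and 1.48 in naive lung. Naive replicate 1 lay near the EV arrays and naive replicate 2 far above them. The list's median level was -4.80 and -4.53 on the EV arrays, against -4.03 and -0.67 on the naive arrays, and its median difference was -2.63, or -0.70 without naive replicate 2. Without naive replicate 1 limma called 46 features, 45 of them lower in EV lung, and 4 of the 46 were on the liver list.

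Heart muscle genes had the highest median of the 53 lists, 2.12, and all 7 measured genes were higher on EV replicate 1 than on EV replicate 2. Of 14 listed genes 7 were measured, and 2 of these passed the filter in EV lung alone. Myh6, the atrial myosin heavy chain, was at 3.14 and -4.95 in EV lung, against -7.48 and -3.75 in naive lung. Myl7, the atrial light chain, was at 3.07 and -4.33 in EV lung, against -4.75 and -2.61 in naive lung. Actc1 (2.70 and 0.37 in EV lung, against 0.40 and 0.39 in naive lung) and Tnni3 (1.13 and -0.97, against -1.55 and -1.06) followed the same pattern. EV replicate 1 was the high array in each case, and MSC replicate 2 exceeded MSC replicate 1 for all 7. Muscle cells also sheathe the pulmonary veins of rats, and the part of such tissue in these values was not tested. The median of the list was 0.14 without EV replicate 1, 4.11 without EV replicate 2 and 1.22 with normexp. With no filter on dim probes it was 1.44, and with a filter on all 4 arrays 1.49. Fgg, a fibrinogen chain made mainly by liver, was at -4.22 and -3.68 in EV lung, at 0.97 and -0.29 in CS lung and at -3.22 and -0.67 in naive lung, so its naive level differs between the arrays as the liver list does.

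**Figure D4:**
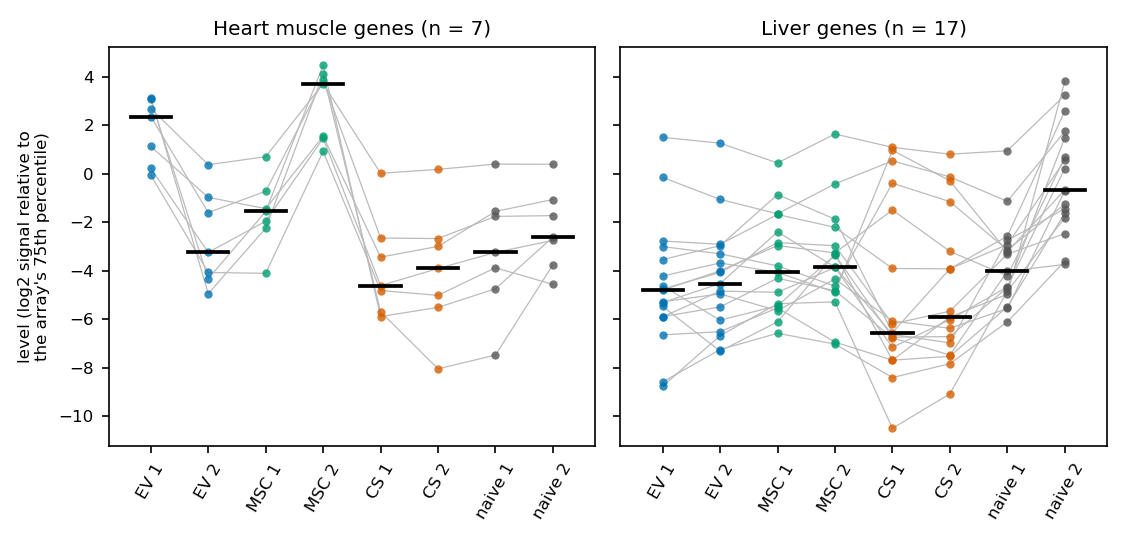
Levels of 7 heart muscle genes (left) and 17 liver genes (right) on the 8 arrays, with thin lines joining a gene and bars for the median. Heart genes are high on EV replicate 1 and MSC replicate 2, and liver genes on naive replicate 2.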

How the data were processed

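RNA of 8 rat lung samples was measured on 1-colour arrays. Per the file headers, the deposited files come from Agilent Feature Extraction 10.7.3.1, array design 074036, and hold intensity values per spot that the authors had not scaled between arrays, together with other flags for spots well above background or outlying. Further steps by the authors are not given in the sources used here. Outlier spots were dropped and 163 probes thereby lost, replicate spots were averaged per probe, and log2 of the deposited processed intensity minus the array's 75th percentile was taken. Symbols came from RefSeq accessions matched to RefSeq genes of GRCr8, used for names only (21215 probes, 16667 symbols). A gene with several kept probes (3155 features) took the brightest. limma 3.58.1 in R 4.3.3 fitted 4 group means over 8 arrays, with 4 residual and 4.07 prior degrees of freedom and Benjamini-Hochberg adjustment. The fit was tested on simulated data. Tables were read with data.table, version 1.17.8, and figures used Python 3.11.15 and matplotlib 3.10.9. The spike-in scaling used 7 of 10 E1A probes, those with a mean log2 signal above 6. Precision is limited by the small number of arrays.

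The genes, lists and tests were chosen with earlier results of these data known. The rule named the 12 smallest p on each side, the 2 brightest members of each list and a fixed set, and those that bear on a comparison are given. Other genes given with values (S100a8, Defa5, Np4, Fkbp5, Klf9, Zbtb16, Nr4a1, Isg15, Ifi44, Hsph1, Bag3, Nos3, Npr3, Ednra, Ahr, Cyp1b1, Slc4a1 as an erythroid gene, Ttr, Apoa2, Ambp, Myh6 and Myl7) were picked after their values were seen. Of the fixed set, Mmp12, Muc5ac and Plrg1 have no value here. Of 950 listed genes 759 were measured. Samples with the same replicate number share a slide row, per the file headers, and nothing in the labels pairs them otherwise.

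Alternatives were E1A scaling, normexp with an offset of 50 on the median spot signal, quantile and cyclic loess normalization, no filter or a filter on all 4 EV and naive arrays, averaging the kept probes per gene, fits of EV and naive arrays only or without CS arrays, a trended and robust prior, array weights, a replicate block, and leaving out each EV or naive array.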

Additional observations from a re-analysis of the deposited data

Results flagged for a closer look

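Signal was present in probes that no comparison uses. The arrays carry 96 probes for ERCC spike-in RNAs, which are not rat genes, and 9 of them were well above background on both EV arrays and 8 on both naive arrays. Of 9 well above background on both arrays of either group, 2 were higher on both EV arrays than on both naive arrays and 5 were lower on both. ERCC-00113_271 stood at 0.45 and 2.33 in EV lung, against 0.13 and 0.11 in naive lung, a mean difference of 1.27. Its level was -6.90 and -5.28 in CS lung and 3.11 and 2.90 in MSC lung. ERCC-00018_67 stood at -3.14 and -1.39 in EV lung, against -3.25 and -3.68 in naive lung, a mean difference of 1.20. This probe was at -9.93 and -8.83 in CS lung and at -0.73 and -0.74 in MSC lung. Of the EV and naive arrays, EV replicate 2 was the highest for both probes. Both probes lay far lower in CS than in EV lung, as RT1-CE5, Cyp4a2 and Cyct did, and the cause was not tested. The labels do not say that ERCC RNAs were added. With 2 samples per group, no group was large enough for the check on single outlying samples.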

How the results depend on the processing

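Of 90 genes named, 55 kept the direction of their EV minus naive difference under all 16 alternatives and 35 turned under at least 1 of them. The count of called features, 0 in the full fit, was 7 with the E1A scaling, 1 with the replicate block and 0 to 46 without single arrays, and 0 under the other alternatives; of the list genes 0 were called, or 0 to 3 without single arrays. The count near naive, 8229, was 0 with the E1A scaling, 17354 with normexp, 4874 without the filter on dim probes, and 949 to 4467 without single arrays, where the lone array of a group takes its spread from the other groups. The features called in EV against CS, 9928, were 16443 with the E1A scaling, 14935 with normexp and 3024 to 10097 without single arrays. Leaving out EV replicate 1 and naive replicate 2 together, chosen after seeing the data, gave 0 called, 0 near naive and 5132 called against CS. The cause of these shifts was not tested, except that arms of 1 array have wider intervals. The E1A scaling also changes the spread within groups, as described above. For the replicate block, which is also the slide row, replicate 1 minus 2 correlated at 0.13 between EV and naive lung; the block called 1 feature, without a symbol.

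Directions turned as follows. With the E1A scaling, which adds 0.48, Ahr stood at 0.37, Ccl2 at 0.079, Cox4i1 at 0.23, Cyp1b1 at 0.46, Hba-a1 at 0.067, Il1b at 0.022, Krt19 at 0.40, Mx2 at 0.36, Nqo1 at 0.086, Pecam1 at 0.21, Prkcz at 0.46, Rplp1 at 0.21, Scgb1a1 at 0.027, Sftpc at 0.12, Sod1 at 0.46 and Timp2 at 0.45, and 52 of 53 list medians lay above 0, against 26 in the full fit. With normexp, Ankrd33b stood at -0.070, Arhgap11a at -0.029, Cyp4a2 at -0.064, Krt19 at 0.015, Loxl1 at -0.12, Mks1 at -0.12, Oas1k at -0.18, Polr1b at -0.13, Sod1 at 0.049, Timp2 at 0.021 and Xpnpep3 at -0.18. With cyclic loess Mx2 stood at 0.0011, Prkcz at 0.026, Sod1 at 0.11 and Timp2 at 0.093. With quantile normalization Cyp1b1 stood at 0.047, Mx2 at 0.0076, Prkcz at 0.046, Rplp1 at 0.046, Sftpc at 0, Sod1 at 0.11 and Timp2 at 0.11. The mean of its probes put Cyp1b1 at 0.18.

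Without single arrays the differences ran from -0.10 to 0.16 for Ager, -1.01 to 0.12 for Scgb1a1, -0.26 to 0.96 for Foxj1, -0.53 to 0.0079 for Pecam1, -0.21 to 0.48 for RT1-CE5, -0.47 to 0.31 for Krt19, -0.40 to 0.16 for Mx2, -0.31 to 0.43 for Ddah2, -0.30 to 0.32 for Fmo2, -0.038 to 0.018 for Sod1, -0.098 to 0.068 for Prkcz, -0.13 to 0.086 for Timp2 and -0.14 to 0.16 for Myh11. They ran from -0.28 to 0.36 for Cyp4a2, -0.031 to 1.302 for Cyct, -0.13 to 0.81 for Loxl1, -0.90 to 0.87 for Cyp1b1, -0.43 to 0.22 for Ahr, -0.34 to 0.74 for Tsc22d3, -1.21 to 0.41 for Ccl2, -0.65 to 6.75 for Myl7, -0.022 to 2.30 for Actc1, -0.14 to 0.60 for Col1a1 and -0.10 to 1.87 for Oas1k.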
